A study of Homo sapiens with 12 samples.

Results

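The cytosolic and mitochondrial chaperones examined here were 37 genes chosen by name, and all 37 were found among the 20212 protein-coding genes counted in the series. They comprised 6 members of the HSP70 family, 6 J-domain proteins, 3 BAG factors, 3 members of the HSP90 family, 5 HSP90 co-chaperones, the mitochondrial pair HSP60 and HSP10, the 8 subunits of the TRiC ring, 2 prefoldin subunits, the small heat shock protein HSPB1 and the transcription factor HSF1. Counts were taken from PANC-1 cells, an established human pancreatic ductal cancer line, which received either the vehicle DMSO (n = 3) or 50 nM rapamycin for 60 min (n = 3). No genetic change was made in either group, and 1 line, 1 dose and 1 time were examined. Each group had 3 libraries of ribosome-protected fragments (RF), the mRNA pieces that a ribosome shields from nuclease, and 3 of total RNA. TE, the translational efficiency, is RF relative to total RNA of the same gene. For TE per culture, RF and total RNA libraries of a group with the same number were taken as 1 culture, which the labels do not state, and their deviations from the group means correlated at -0.0961 to 0.00806 across genes. The fitted TE change does not use this link. The labels number the samples without saying how the cultures were set up, so p-values measure the spread between these samples, which may be technical.

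Chaperones hold newly made or damaged proteins until they fold. HSP70 binds short exposed stretches with the help of J-domain proteins and releases them through nucleotide exchange factors such as the BAG proteins, HSP90 and its co-chaperones mature kinases and steroid receptors, prefoldin hands actin and tubulin to the TRiC ring, and HSP60 with its lid HSP10 folds proteins in the mitochondrial matrix. HSF1 switches on many of these genes under heat or proteotoxic stress. Rapamycin inhibits the kinase complex mTORC1, whose best known translational targets are mRNAs that begin with a run of pyrimidines, called TOP mRNAs.

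The RF libraries held between 278835 and 1574723 counted reads and the total RNA libraries between 78081241 and 94293744. Levels are given as CPM, reads scaled to a common library size. A gene without reads may still hold up to 3 counts, or 1.91 to 10.8 CPM in RF and at most 0.0384 CPM in total RNA, a limit for counting error only. The total RNA libraries of DMSO replicates 1 and 2 stood apart, with 16840 and 16858 genes detected against at least 19751 in each of the other total RNA libraries. The spread between replicates, as a biological coefficient of variation over all genes, was 5.31% for total RNA alone, 54.9% for RF alone and 24.4% when both were fitted jointly. Of the markers of ductal epithelium and PANC-1, 8 of 8 reached 1 CPM in total RNA, at a summed 13572 to 13914 CPM in DMSO and 13891 to 13946 in rapamycin, although KRT7 (5.38 to 6.84 CPM) and EPCAM (7.30 to 8.33 CPM) were low. Of 15 measured markers of acinar, endocrine, immune, endothelial and fibroblast cells, 2 did, CD68 (104 to 120 CPM) and COL1A1 (3.62 to 5.42 CPM). The sum of all 15 was 108 to 125 CPM in DMSO and 115 to 121 CPM in rapamycin, most of it from the immune marker CD68.

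Most of the 37 chaperone genes were well expressed in these cells. They took 1.06% to 1.23% of the reads of an RF library and 1.56% to 1.69% of a total RNA library, the lowest total RNA share being that of rapamycin replicate 2. All 37 passed the minimum of 10 counts summed over the RF and 10 over the total RNA libraries. To compare genes with each other, RF was expressed per length, as CPM per kilobase of the longest coding sequence (RF density), and total RNA as FPKM. Among the 13023 genes with both values, 22 of 37 chaperone genes lay at or above the 90th percentile of RF density in DMSO and 22 at or above that of FPKM. The highest RF densities in DMSO were 899 ± 104 (SD, n = 3) for HSP90AB1, the constitutive cytosolic HSP90, and 886 ± 131 for HSPA8, the constitutive cytosolic HSP70, a pair whose ranges overlapped. PTGES3, the co-chaperone p23, followed at 561 ± 47.0 and HSPE1, the HSP10 lid, at 537 ± 76.9, again with overlapping ranges, and then HSPB1 at 393 ± 55.8. The lowest were HSF1 at 8.81 ± 3.70, DNAJB4 at 15.5 ± 12.9 and BAG1 at 20.8 ± 23.2, each read from few footprints.

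**Figure D1:**
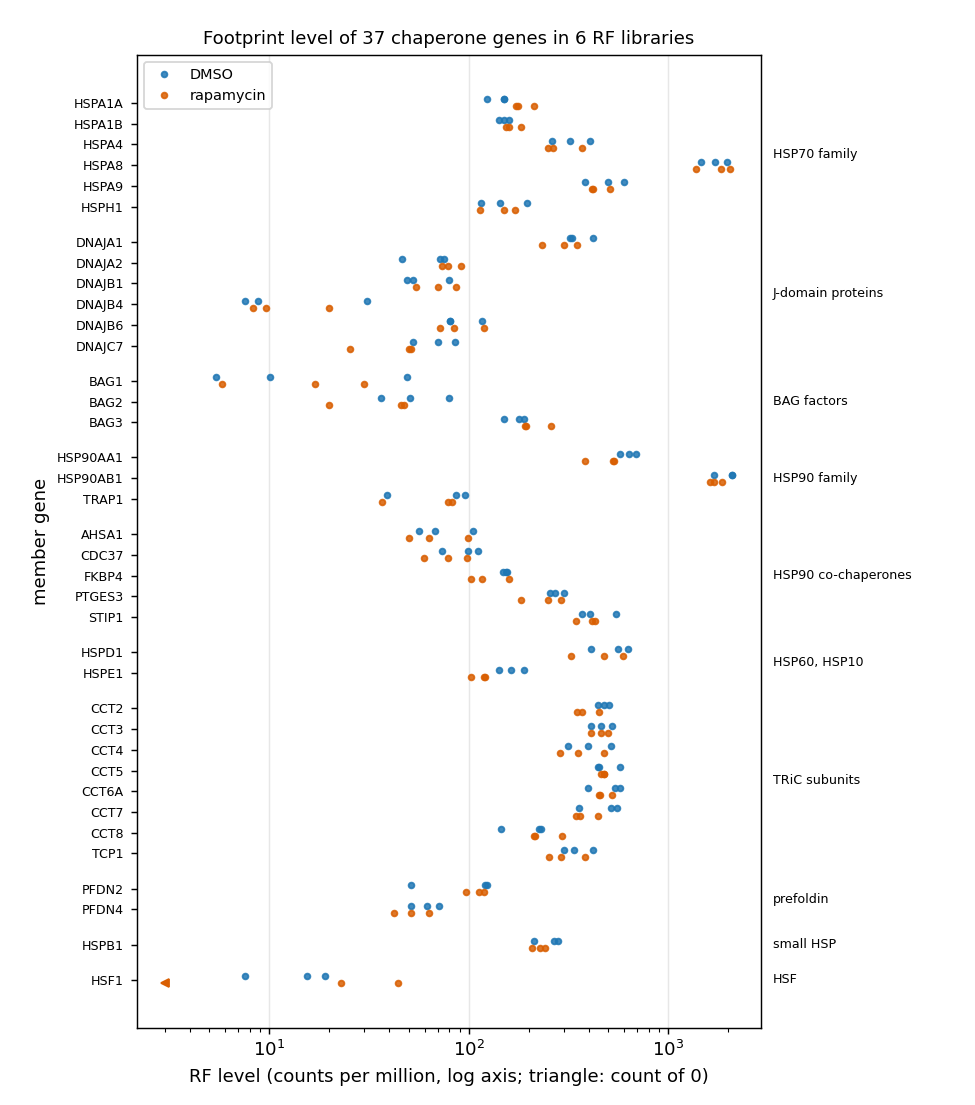
RF level of each of the 37 chaperone genes in CPM on a log axis, with 1 dot per library and the genes grouped by role. HSPA8 and HSP90AB1 lie between 1374 and 2087 CPM in all 6 libraries, most dots of the 2 treatments interleave, and the triangle marks the count of 0 of HSF1 in rapamycin replicate 3.

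After 60 min of rapamycin, no chaperone gene passed the test for a change in TE. By the quasi-likelihood test of edgeR, adjusted after Benjamini-Hochberg over 13329 genes, 0 of 37 had an adjusted p under 0.05 in either direction, as did 0% of all genes. At an unadjusted p under 0.05 the count was also 0 of 37, against 6.42% of all genes lower and 6.17% higher. The fitted log2 change in TE was below 0 for 26 of 37, where 53.7% of all genes were below 0, with a median of -0.10 over the chaperones and -0.06 over all genes. Without the shallowest RF culture of each treatment (DMSO replicate 1 and rapamycin replicate 3), 20 of 37 were below 0. The median was then -0.02 over the chaperones and -0.04 over all genes. With all cultures, the values ran from -0.73 for DNAJC7 to 0.92 for HSF1. By role, 5 of 5 HSP90 co-chaperones, 6 of 8 TRiC subunits, 2 of 3 HSP90 genes, 4 of 6 J-domain genes, 2 of 3 BAG factors and 3 of 6 HSP70 genes were below 0. A p that misses the threshold does not show that TE was equal, and the intervals were wide. For the well counted HSP90AB1 the 95% interval of the TE fold was 0.742 to 1.13. For BAG1 it was far wider, from -1.82 to 1.76 on the log2 scale. The TE fit held 1 spread per gene for both kinds of library, although RF varied far more than total RNA. The SE of HSP90AB1 was 0.14 in TE and 0.19 in RF alone, while that of HSPD1 was 0.26 and 0.25. TE intervals may thus be too narrow and p too small.

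DESeq2's Wald test, run on the same counts, called 3 of the 37, HSPA1A higher (adjusted p 0.025) and DNAJC7 and HSPE1 lower (adjusted p 0.00744 and 0.0247), where it called 9.45% of all genes. Leaving out DMSO replicate 3, edgeR called 3.33% of all genes and 0 of the 37. HSPA1A, DNAJC7 and HSPE1 were also the only chaperone genes whose 3 rapamycin cultures all lay on one side of the 3 DMSO cultures in TE. That is 2 of 37 lower, where 6.19% of all genes had such separate groups, and 1 of 37 higher, where 4.8% did.

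**Figure D2:**
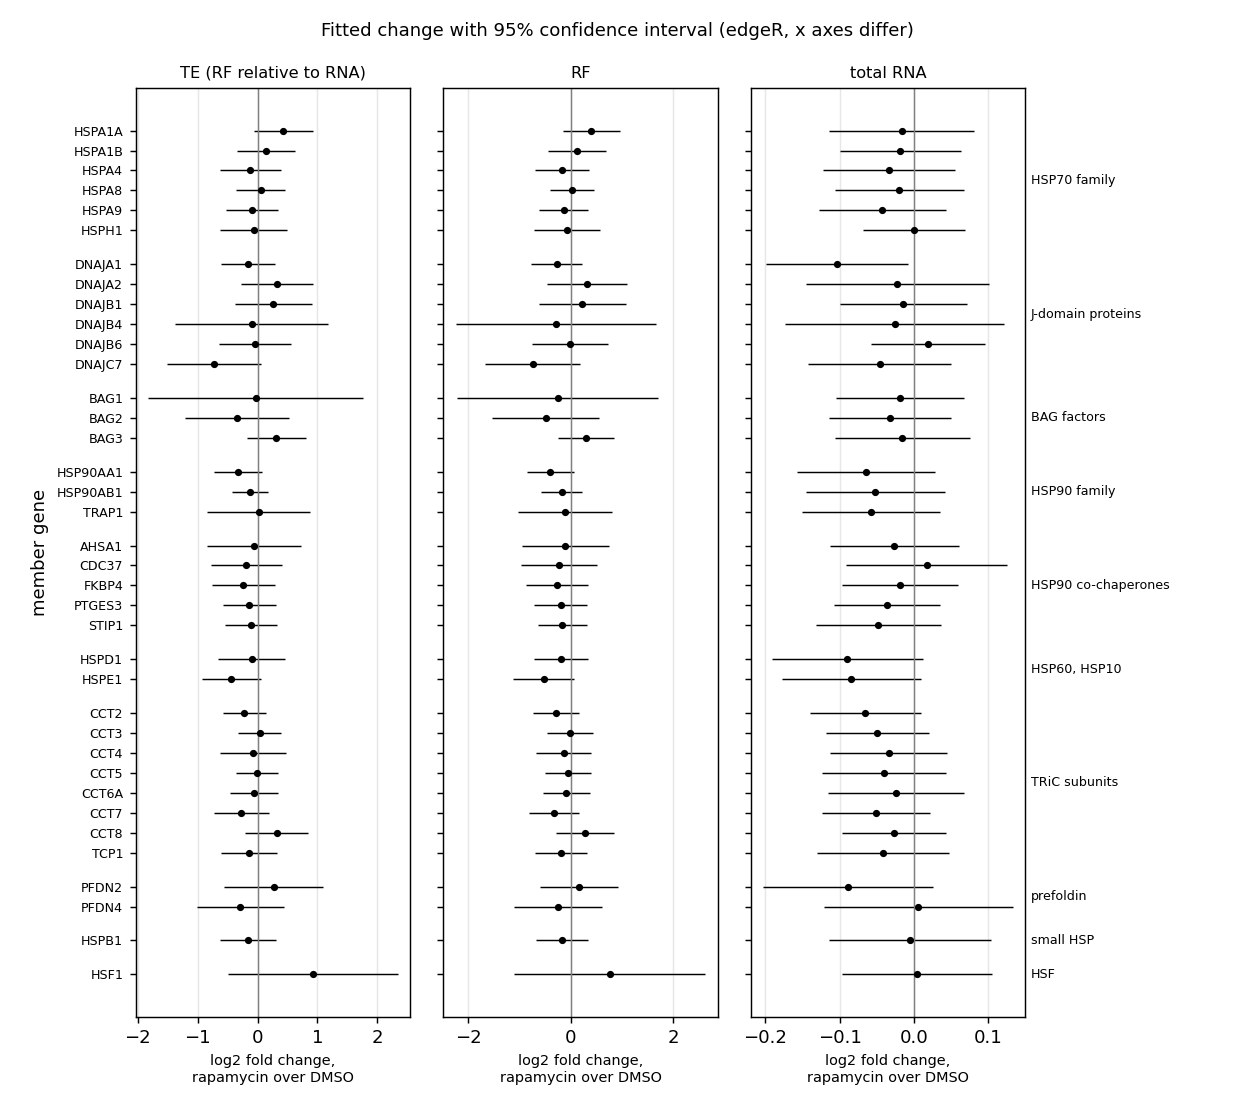
Fitted log2 fold change, rapamycin over DMSO, of the 37 chaperone genes in TE, RF and total RNA, with bars for the 95% confidence interval and a different x axis in each panel. Every TE and RF interval crosses 0, and in total RNA DNAJA1 alone has an interval below 0, at -0.20 to -0.01.

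The HSP70 genes include the constitutive HSPA8, the mitochondrial HSPA9 (mortalin), the heat-inducible pair HSPA1A and HSPA1B, and HSPA4 and HSPH1, which act as nucleotide exchange factors. HSPA1A (chr6:31783320-31785723) and HSPA1B (chr6:31795515-31798031) lie side by side on the plus strand of GRCh37 and carry nearly the same coding sequence. Their 1923 coding bases were 99.8% identical, with 4 positions that differ, written with the base of HSPA1A first and counted from the first coding base: G1710T, G1860C, C1905T and A1920G. The longest identical run was 1709 bases, far longer than a footprint. A stretch of 30 bases from inside it, about the length of a footprint, is shown with the stretch that holds 2 of the differences, in capitals, because reads from the first cannot be assigned to 1 gene. The coordinates are chr6:31784373-31784402 and chr6:31796567-31796596 for the shared stretch, and chr6:31785424-31785453 and chr6:31797618-31797647 for the differing one, all on the plus strand.

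HSPA1A shared: cagcctggagatcgactccctgtttgaggg
HSPA1B shared: cagcctggagatcgactccctgtttgaggg
HSPA1A differing: tctgggtcaggcccCaccattgaggaggtA
HSPA1B differing: tctgggtcaggcccTaccattgaggaggtG

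Of all 30-base coding windows of each gene, 95.8% had an exact copy elsewhere in the genome, led by the other gene of the pair, and 79 windows had none. The counts of this pair are therefore uncertain, since the authors counted uniquely aligned reads. RF of HSPA1A was 151, 123 and 149 CPM in DMSO replicates 1, 2 and 3 and 172, 212 and 176 CPM in rapamycin. The rapamycin values all lay above the DMSO values, and the fitted TE change was 0.43 on the log2 scale (SE 0.23, edgeR adjusted p 0.46). In the exact two-sided permutation test over cultures p was 0.1, the smallest that 3 against 3 can give. RF of HSPA1B was 151, 160 and 141 CPM in DMSO and 158, 154 and 183 CPM in rapamycin, so the groups overlapped. Its TE change was 0.14 (SE 0.23, edgeR adjusted p 0.838), and the difference between the changes of the 2 genes was not tested. Total RNA of both overlapped between treatments, at 80.6 to 88.4 CPM in DMSO and 80.4 to 86.8 CPM in rapamycin for HSPA1A and 66.6 to 68.8 against 64.2 to 68.3 CPM for HSPA1B.

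HSPA8 (chr11:122928197-122933938) had the most footprints of the family, with 1723, 1462 and 1969 CPM in DMSO and 2037, 1843 and 1374 CPM in rapamycin. The highest and the lowest of these 6 values were both from rapamycin cultures, and the TE change was 0.05 with a 95% interval of -0.36 to 0.46. HSPA9 (chr5:137889445-137911364) gave 381, 498 and 598 CPM in DMSO and 512, 416 and 419 CPM in rapamycin, with overlapping groups and a TE change of -0.10 (95% interval -0.53 to 0.34). HSPA4 and HSPH1 had TE changes of -0.12 and -0.07, with adjusted p of 0.869 and 0.946 in edgeR's test. For HSPA8, 54.1% of the coding windows had a copy elsewhere, spread over 15 loci that are led by the pseudogene HSPA8P1.

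Among the J-domain proteins, which deliver clients to HSP70 and speed its ATP hydrolysis, DNAJC7 (chr17:40128439-40173394, minus strand) gave the smallest p in TE of any chaperone gene. Its RF was 52.3, 85.5 and 70.0 CPM in DMSO and 51.4, 25.4 and 49.9 CPM in rapamycin. The groups were separate by a narrow margin, with DMSO replicate 1 just above rapamycin replicate 1. In log2 TE the cultures gave -0.43, 0.18 and -0.07 in DMSO and -0.52, -1.32 and -0.49 in rapamycin. The fitted TE change was -0.73 (SE 0.37, edgeR unadjusted p 0.069, adjusted p 0.436), with an exact permutation p of 0.1. Without rapamycin replicate 2, which had the lowest value, the change was -0.47. Of the exon bases of DNAJC7, 7.08% also lie in exons of NKIRAS2 on the other strand, and whether the counting used strand was not given in the sources used here. The other 5 J-domain genes had TE changes from -0.15 for DNAJA1 to 0.33 for DNAJA2, with overlapping groups. DNAJB4 rested on 6 to 13 RF counts per library, so that its TE interval reached from -1.37 to 1.17.

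The 3 BAG genes differed in depth. BAG3, a factor that links HSP70 to selective autophagy, had RF of 178, 190 and 151 CPM in DMSO and 194, 191 and 259 CPM in rapamycin. All 3 rapamycin values exceeded the DMSO values, the RF change was 0.31 (SE 0.26), and the TE groups overlapped at a change of 0.31 (95% interval -0.18 to 0.81, edgeR adjusted p 0.607). Without rapamycin replicate 3, the highest, the change was 0.16 in RF and 0.15 in TE. BAG2, which inhibits the ubiquitin ligase CHIP, had a TE change of -0.34 and shares 42.7% of its exon bases with RAB23 on the other strand. BAG1 was read from 7 to 16 RF counts per library.

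HSP90AB1 (chr6:44213903-44221625) and the inducible HSP90AA1 (chr14:102547079-102606036, minus strand) supplied most HSP90 footprints. RF of HSP90AB1 was 1692, 2087 and 2078 CPM in DMSO and 1864, 1699 and 1620 CPM in rapamycin. The groups overlapped through DMSO replicate 1, and the TE change was -0.13 (SE 0.14, edgeR adjusted p 0.761). RF of HSP90AA1 was 572, 636 and 692 CPM in DMSO and 536, 526 and 383 CPM in rapamycin, so every rapamycin value lay below every DMSO value. Its RF change was -0.39 (SE 0.21) and its TE change -0.32 (SE 0.19), with an edgeR adjusted p of 0.5 in TE. Without rapamycin replicate 3, the lowest, they were -0.25 and -0.21. In TE the groups overlapped, since DMSO replicate 1 (0.31 on the log2 scale) lay below rapamycin replicate 1 (0.36). In RF density, HSP90AB1 was 3.63 ± 0.208 times HSP90AA1 in the DMSO cultures and 4.30 ± 0.619 times in the rapamycin cultures (SD, n = 3), with overlapping ranges. Copies elsewhere covered 51.2% of the coding windows of HSP90AB1 and 51.0% of those of HSP90AA1, led by the pseudogenes HSP90AB3P and HSP90AA2P. TRAP1, the mitochondrial HSP90, had a TE change of 0.02 with an interval of -0.84 to 0.88. Of its exon bases, 28.5% also lie in exons of other coding genes, led by DNASE1 on the other strand.

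The TE of all 5 HSP90 co-chaperones lay slightly below 0 in the fit. STIP1, which bridges HSP70 and HSP90, was at -0.11, AHSA1, which activates the HSP90 ATPase, at -0.06, the kinase adaptor CDC37 at -0.19, PTGES3 at -0.14 and the immunophilin FKBP4 at -0.23. Their edgeR adjusted p ranged from 0.737 to 0.966, and in each the cultures of the 2 treatments overlapped. PTGES3 had 75.2% of its coding windows copied elsewhere.

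The first 20 bases of the leading coding isoform, the one with the highest mean FPKM of those annotated, were read from the annotation to see which chaperone mRNAs begin much as TOP mRNAs do. A start counted as TOP-like with a run of at least 5 pyrimidines that begins within the first 4 bases, other than a run that makes it a TOP start. Of the 37 genes 4 were TOP-like, where 10.1% of 12860 genes were. The 4 starts are shown, with the pyrimidine run in capitals, because such runs resemble those that open TOP mRNAs. In each of the 4, other bases come before the run, so none of them is a TOP start. They lie in GRCh37 at chr11:63953643-63953662 on the plus strand for STIP1, chr19:10514199-10514218 (minus) for CDC37, chr17:40169438-40169457 (minus) for DNAJC7 and chr7:75931990-75932009 (plus) for HSPB1. The start that PANC-1 cells use was not measured.

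STIP1: agCTTCTagtaggttccaga
CDC37: agTCTCCactgctgccgccg
DNAJC7: agCTCTCTggtcccggcggt
HSPB1: gcaCTTTTCTgagcagacgt

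The fitted TE changes of these genes were -0.11 for STIP1, -0.19 for CDC37, -0.73 for DNAJC7 and -0.16 for HSPB1. All were below 0, as were 26 of the 37 chaperone genes and 53.7% of all genes, and none passed the test. DNAJC7 had the lowest TE value of the 37, and its printed isoform led in 3 of 6 total RNA libraries only. That isoform held a mean of 28.1% of the gene's FPKM in DMSO and 27.5% in rapamycin, so most of it was in other isoforms.

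HSPD1 (HSP60, chr2:198351308-198381461, minus strand) and HSPE1 (HSP10, chr2:198364864-198368173, plus strand) sit head to head. RF of HSPE1 was 142, 188 and 163 CPM in DMSO and 120, 120 and 103 CPM in rapamycin. All rapamycin values lay below all DMSO values, with an RF change of -0.52 (SE 0.28) and a TE change of -0.44 (SE 0.23, edgeR adjusted p 0.453). The exact permutation test on TE gave p = 0.1. RF of HSPD1 was 409, 631 and 560 CPM in DMSO and 595, 476 and 326 CPM in rapamycin, with overlapping groups and a TE change of -0.10 (95% interval -0.66 to 0.46). The RF density of HSPD1 was 0.574 ± 0.0521 of that of HSPE1 in DMSO and 0.717 ± 0.160 in rapamycin, with overlapping ranges. Both values are uncertain, because 69.2% of the windows of HSPD1 and 86.6% of those of HSPE1 have copies elsewhere, the latter over 20 loci. In addition 17.9% of the exon bases of HSPE1 belong to exons of other coding genes, chiefly the read-through gene HSPE1-MOB4 on the same strand.

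**Figure D3:**
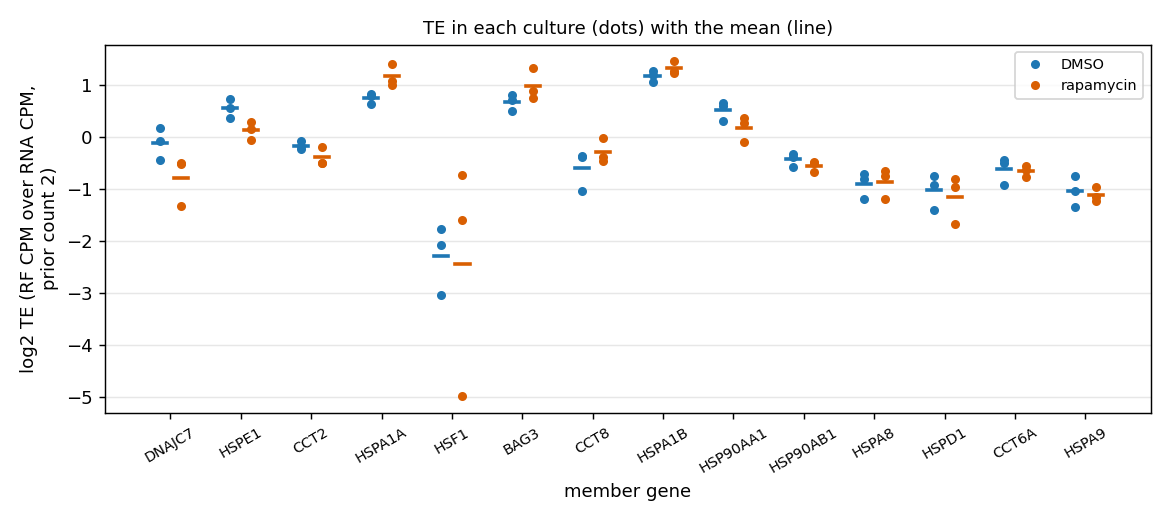
log2 TE of 14 chaperone genes in each culture (dots) with the mean of 3 cultures (line), from RF and total RNA CPM with a prior count of 2. The dots of DNAJC7, HSPE1 and HSPA1A do not overlap between treatments, those of the other genes do, and HSF1 spans the widest range.

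TRiC is built of rings that hold 8 different subunits, each present once, so the 8 genes supply parts of equal number. In the DMSO cultures the RF density of 5 subunits lay close together, at 295 ± 18.3 for CCT2, 283 ± 34.1 for CCT3, 300 ± 43.6 for CCT5, 315 ± 58.4 for CCT6A and 292 ± 64 for CCT7 (SD, n = 3). Their ranges overlapped. CCT4 followed at 253 ± 62.6, TCP1 at 211 ± 37.6 and CCT8 at 121 ± 28.9. For TCP1, 9.30% of the exon bases also lie in exons of other coding genes, led by ACAT2 on the other strand. The 3 DMSO values of CCT8 (137, 87.9 and 139) were below those of every other subunit, the lowest of which was 179 for TCP1. With the same RF counts divided by the number of windows without a copy elsewhere, in place of the coding length, the order differed. It ran from CCT6A at 431 ± 79.7 and CCT5 at 379 ± 55.0 through TCP1 at 339 ± 60.4 and CCT7 at 325 ± 71.4. CCT2 at 301 ± 18.6, CCT3 at 288 ± 34.8, CCT4 at 262 ± 64.8 and CCT8 at 182 ± 43.4 followed. The ratio of the highest to the lowest subunit was 2.98 ± 0.959 in DMSO and 2.10 ± 0.235 in rapamycin for RF density, with DMSO replicate 2, where CCT8 was low, highest at 4.08. The ranges of the treatments overlapped when lengths implied by FPKM or windows without a copy were used. For FPKM it was 3.87 ± 0.178 and 3.83 ± 0.0539. In FPKM, CCT5 was highest at 470 ± 18.6 and CCT8 lowest at 122 ± 1.03. CCT5 thus led in total RNA and stood among 5 similar subunits in footprints over the whole coding length.

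**Figure D4:**
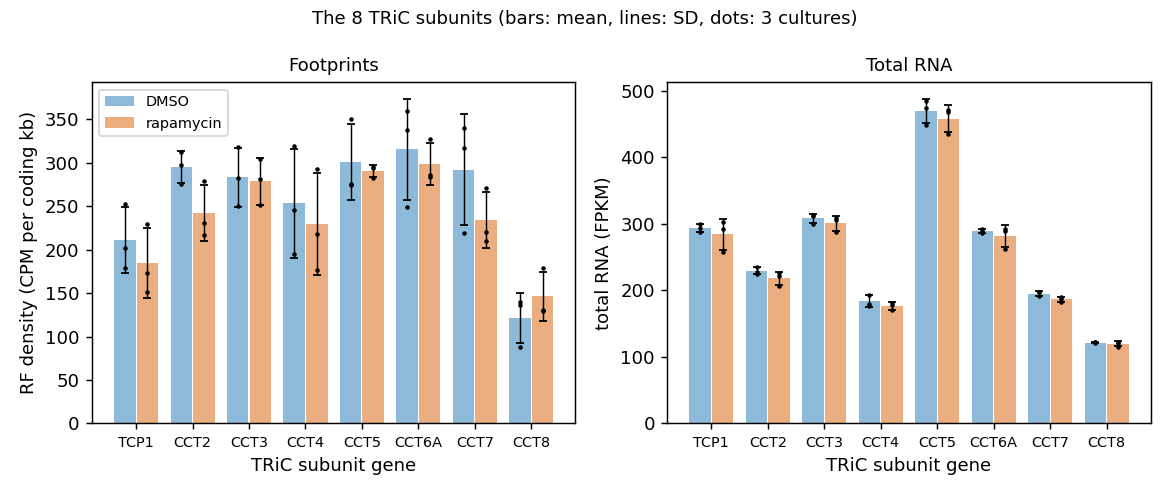
RF density (CPM per coding kilobase, left) and total RNA (FPKM, right) of the 8 TRiC subunit genes, with bars for the mean of 3 cultures, lines for the SD and dots for the cultures. CCT8 is lowest in both panels in DMSO, and CCT5 is highest in total RNA at 470 FPKM but level with CCT2, CCT3, CCT6A and CCT7 in RF.

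No TRiC subunit passed the test in TE. CCT2 gave RF of 443, 478 and 501 CPM in DMSO and 448, 349 and 369 CPM in rapamycin, overlapping by 1 culture, with a TE change of -0.22 (SE 0.17, edgeR adjusted p 0.622). CCT8 gave 225, 145 and 229 CPM in DMSO and 293, 214 and 213 CPM in rapamycin, with a TE change of 0.32 (SE 0.25, adjusted p 0.633 in edgeR). DMSO replicate 2 was low for CCT8, and without it the TE change was 0.12, while without rapamycin replicate 1, the highest, it was 0.14. CCT7 gave 357, 553 and 516 CPM in DMSO and 442, 359 and 343 CPM in rapamycin, with an RF change of -0.32 (95% interval -0.81 to 0.17). CCT6A gave 397, 572 and 539 CPM in DMSO and 521, 451 and 456 CPM in rapamycin and a TE change of -0.06 (95% interval -0.46 to 0.34). The tightest intervals of the ring were those of CCT5 (-0.36 to 0.34) and CCT3 (-0.32 to 0.39). The prefoldin subunits PFDN2 and PFDN4 had TE changes of 0.27 and -0.29, and the small heat shock protein HSPB1 one of -0.16 (95% interval -0.62 to 0.30).

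HSF1 had the largest fitted TE value of the 37 and the lowest RF density. The DMSO libraries held 5, 6 and 28 of its footprints and the rapamycin libraries 53, 19 and 0. On the CPM scale these were 15.4, 7.54 and 19 against 43.9, 23.0 and 0. The 0 of rapamycin replicate 3 allows up to 10.8 CPM, so the groups overlapped. The fitted TE change was 0.92 (SE 0.66, edgeR adjusted p 0.599), and its sign turned in 2 alternative fits, to -0.10 in limma voom with sample quality weights and to -0.14 with limma-trend on TE per culture, while without rapamycin replicate 1 it was 0.10. Total RNA of HSF1 was even, at 74.9, 81.7 and 72.5 CPM in DMSO and 76.8, 76.3 and 76.6 CPM in rapamycin.

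HSF1 binds inverted repeats of GAA. Such a heat shock element of 3 units, searched on both strands as GAANNTTCNNGAA or TTCNNGAANNTTC, which may overlap each other, was found in a promoter of 6 of 33 chaperone genes that the RefSeq promoter table (GRCh38.p14, 250 bases before to 50 after the start) holds, against 0.608% of 27305 genes. A shorter match of 2 units, GAANNTTC or TTCNNGAA, was found in 17 of 33, HSPA1A and HSPA1B among them, against 16.2% of all genes. Only exact matches in this stretch were searched, so a gene without one may still hold an element. The 6 with 3 units were DNAJA1, DNAJB6, HSP90AA1, HSP90AB1, HSPA8 and HSPD1. Examples are shown with the element in capitals, as the feature that the most footprint-rich genes HSP90AB1 and HSPA8 share with HSP90AA1, DNAJB6 and HSPD1. On GRCh38.p14 they lie at chr6:44247771-44247797 (plus) and chr6:44247824-44247850 (plus) for HSP90AB1, chr14:102087113-102087139 (minus) for HSP90AA1, chr11:123062172-123062198 (minus) for HSPA8, chr7:157336866-157336892 (plus) for DNAJB6 and chr2:197500061-197500087 (minus) for HSPD1.

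HSP90AB1 first: gagcaggTTCTGGAAGATTCatgggct
HSP90AB1 second: gagattgTTCTGGAAGCTTCtggattc
HSP90AA1: agggttcTTCCGGAAGGTTCgggaggc
HSPA8: gggccccTTCTGGAAGGTTCtaagata
DNAJB6: gagccgaGAACCTTCGCGAAggtgggg
HSPD1: ttttctgGAAAGTTCTGGAAccgagcg

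Distances are counted from the start of the promoter that held the match. These elements begin 165 and 112 bases before it for HSP90AB1, 88 for HSP90AA1, 55 for HSPA8, 131 for DNAJB6 and 240 for HSPD1. RefSeq gave 3 promoters for HSP90AB1 and 2 each for HSP90AA1 and HSPD1. Whether the matching starts are those of the leading isoforms was not tested, so an element may lie inside the transcribed gene. A match is a description of the letters, and no binding was measured here. The fitted total RNA difference of the 6 genes ran from -0.10 (DNAJA1) to 0.02 (DNAJB6) on the log2 scale.

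In RF alone, 0 of 37 chaperone genes were called by edgeR, with a smallest adjusted p of 0.99992, where 0% of all genes were called in either direction. At an unadjusted p under 0.05 the count was 0 of 37, against 1.92% of all genes lower and 1.76% higher, and DESeq2 called 0 of 37 and 0.0375% of all genes. The RF change was below 0 for 28 of 37, where 48.7% of all genes were below 0, with a median of -0.16 against 0.02 for all genes. Without the shallowest RF culture of each treatment (DMSO replicate 1 and rapamycin replicate 3), 19 of 37 were below 0. The median was then -0.04, against 0.03 for all genes. With 1 culture left out at a time, 21 to 28 of 37 were below 0. Groups that do not overlap were seen for HSPE1, HSP90AA1 and DNAJC7 in the lower direction, 3 of 37 against 4.58% of all genes, and for HSPA1A and BAG3 in the higher direction, 2 of 37 against 5.24%.

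Differences in total RNA were small. By edgeR 0 of 37 were called, where 0% of all genes were called in either direction, and by DESeq2 0 of 37 and 0.218% of all genes. At an unadjusted p under 0.05 the J-domain gene DNAJA1 was lower, 1 of 37 against 2.51% of all genes, and 0 of 37 were higher against 3.32%. DNAJA1 (chr9:33025271-33039905) had 481, 479 and 486 CPM in DMSO and 472, 419 and 455 CPM in rapamycin. All rapamycin values lay below all DMSO values, the change was -0.10 (SE 0.04, edgeR unadjusted p 0.0366, adjusted p 0.766), and without rapamycin replicate 2, which was lowest, it was -0.06. HSPD1 had 1083, 1067 and 1058 CPM in DMSO and 1044, 928 and 1042 CPM in rapamycin, a change of -0.09 with separate groups. HSPE1 had 111, 115 and 112 CPM in DMSO and 109, 99.5 and 109 CPM in rapamycin, a change of -0.08, again with separate groups. CCT3, named after its values were seen, was the fourth gene with separate groups, at 769, 784 and 782 CPM in DMSO and 761, 731 and 765 CPM in rapamycin. Together they were 4 of 37 lower, where 6.61% of all genes had separate groups, and 0 of 37 higher against 8.22%.

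The total RNA change was below 0 for 32 of 37 chaperone genes, where 46.8% of all genes were below 0, with a median of -0.03 against 0.0059 for all genes. The chaperone share of rapamycin replicate 2 was the lowest of the 6 libraries, at 1.56%. Without that culture 25 of 37 were below 0, and the median was -0.01 against 0.0012 for all genes. With any other single culture left out, 32 to 36 of 37 were below 0. Without that library and DMSO replicates 1 and 2, which stood apart in genes detected, 22 of 37 were below 0. The median was then -0.01, against 0.0008 for all genes. That fit kept only 1 DMSO library, so it holds no spread between DMSO samples and is not a replicated comparison. CCT2 had 523, 542 and 533 CPM in DMSO and 512, 492 and 523 CPM in rapamycin, overlapping by 1 culture. The genes with the smallest p above 0 were DNAJB6, a suppressor of protein aggregation, at 0.02 (179, 183 and 186 CPM in DMSO, 189, 178 and 189 CPM in rapamycin) and CDC37 at 0.02 (170, 177 and 177 CPM in DMSO, 182, 163 and 185 CPM in rapamycin). PFDN4 (43.6, 40.7 and 41.1 CPM against 44.7, 38.5 and 42.6 CPM) and HSF1 followed, with changes of 0.01 and 0.00. All of these groups overlapped.

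Footprints per RNA differed widely between chaperone genes. RF density over FPKM, both per length, had a median of 1.19 over the 37 genes in DMSO and of 0.955 over the 10551 genes with an FPKM of at least 1. The ratio was highest for HSPB1 (4.57 ± 0.838, SD, n = 3), PFDN2 (4.21 ± 1.84) and HSPA1B (3.76 ± 0.325), and lowest for HSF1 (0.271 ± 0.123), HSPA8 (0.525 ± 0.0867) and TRAP1 (0.545 ± 0.224). The ranges of HSPA8 and HSPB1 did not overlap. HSPA8 was at the 98.7th percentile of genes in RF density and the 99.9th in FPKM, and at the 26.8th in the ratio. With all its RF counts divided by its windows without a copy elsewhere, and FPKM unchanged, the ratio was 1.16 ± 0.192. The median ratio was 2.03 for 9 genes with at least 50% of windows copied, 1.14 for 16 with some, and 1.21 for 12 with none. Across the 37 genes, Pearson's r between the copied share and the log2 ratio was 0.254 and Spearman's rho 0.119, a description over genes that share libraries. With all RF counts divided by the windows without a copy, the ratio was 49.5 ± 3.46 for HSPA1A, 91.5 ± 7.92 for HSPA1B and 21.6 ± 3.26 for HSPE1. Such windows cover the coding sequence only, whereas the counts took reads from all exons. For HSPA1A the exons hold 2404 bases and the coding sequence 1923. Reads with a single alignment may thus also come from exon bases outside the coding sequence. Where the counted reads came from was not tested, so the RF values of these genes may hold reads that other loci share.

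**Figure D5:**
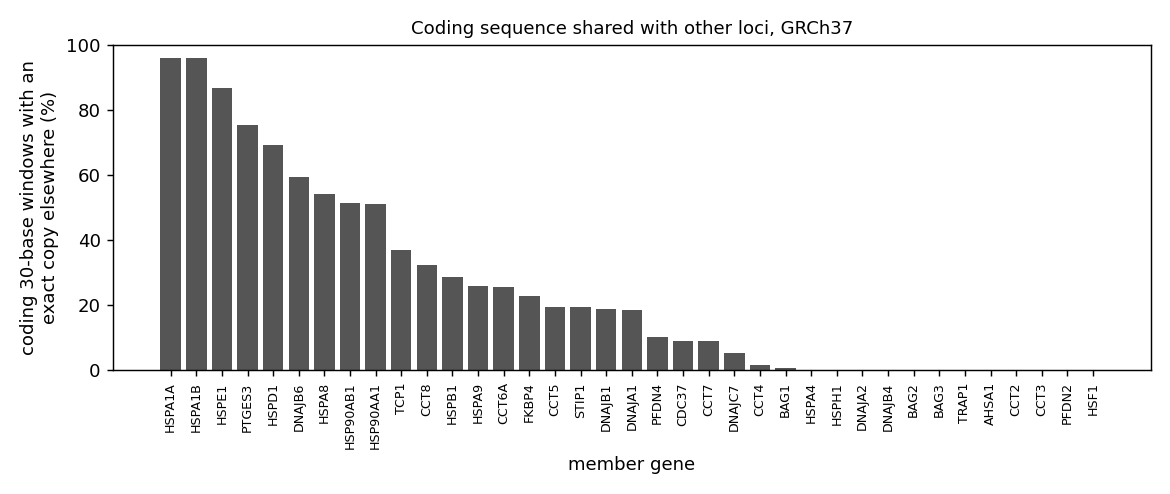
Share of the 30-base coding windows of each chaperone gene, in percent, that have an exact copy elsewhere in GRCh37. HSPA1A and HSPA1B stand at 95.8%, 9 genes are at 50% or more, and 12 genes have none.

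Isoform use was read from the deposited FPKM values of isoforms, as the share of the gene's deposited FPKM in the leading coding isoform of the annotation used here. For 6 of 37 chaperone genes the isoforms found in this annotation held under 90% of the gene's FPKM, among them BAG2 (15.7%), CCT6A (45.5%) and DNAJA1 (54.3%), so an isoform outside it may lead there. The share overlapped between treatments for 34 of 37. It was separate and lower for HSP90AA1, at 86.8% ± 0.546 in DMSO and 85.5% ± 0.742 in rapamycin (SD, n = 3), and for BAG3, at 91.8% ± 1.96 and 90.3% ± 0.243, which is 2 of 37 where 4.55% of 11946 genes were. It was separate and higher for CCT6A, at 34.5% ± 0.669 and 36.1% ± 0.670, which is 1 of 37 where 4.91% were.

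Other chaperone genes were listed for context, also with earlier results known. Of 99 further HSP70, HSP90, J-domain, small heat shock, TRiC, prefoldin, mitochondrial and heat shock factor genes, 89 passed the count minimum. By edgeR 0 were called in TE, RF or total RNA. At an unadjusted p under 0.05, TE was lower for 5 of the 89 and higher for 8, where 6.42% of all genes were lower and 6.17% higher. Their median TE change was -0.02, with 46 of 89 below 0. In each list, the gene with the smallest TE p was HSPA2, a testis-rich HSP70, at -1.54 (unadjusted p 0.0142), the ubiquitin ligase STUB1 at 1.09 (0.0189), DNAJB5 at 4.16 (0.00135), the lens crystallin CRYAA at -1.14 (0.187), the prefoldin-like PDRG1 at 1.05 (0.00722), the inner membrane import factor TIMM44 at 1.63 (0.00854) and HSF2BP at -2.77 (0.0274). DNAJB5 had 0, 1 and 0 footprints in the DMSO libraries and 9, 7 and 1 in those of rapamycin, and HSF2BP from 18 in all, so their fitted sizes depend on the prior count. STUB1, which encodes CHIP, had 40.0, 28.9 and 51.6 CPM of RF in DMSO and 62.2, 77.4 and 126 CPM in rapamycin, with separate groups and an edgeR adjusted p of 0.309.

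For comparison, 16 endoplasmic reticulum chaperones had a median TE change of -0.05 with 11 of 16 below 0, and 14 subunits of the proteasome core a median of 0.12 with 5 of 14 below 0. By edgeR 0 were called in either list, and at an unadjusted p under 0.05, which 6.42% of all genes reached in the lower direction, 2 and 1 were lower. The lowest p were those of DNAJC3, an inhibitor of the kinase PERK, at -0.80 (adjusted p 0.311), and of PSMA4 at -0.67 (adjusted p 0.231), both by edgeR. The lists were not tested against the 37 genes.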

How the data were processed

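RF and total RNA of PANC-1 cells were measured in 12 libraries, 3 of each kind per treatment. The authors trimmed RF reads and removed those of ribosomal RNA. Both read types were then aligned by HISAT2 to GRCh37, and the authors deposited raw counts per protein-coding gene, for reads with a single alignment that fell in exons, made with featureCounts, whose version and strand setting are not given in the sources used here. For total RNA, FPKM of each gene and isoform was deposited as well, made with Cufflinks 2.2.1 and its program Cuffnorm. The same table as the counts holds the authors' own comparison by RiboDiff, as deposited TE ratio values, a log2 fold change and p-value columns, which were not used here. The deposited Cuffnorm count tables were not used. No column of per-sample values was without a sample.

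Counts were scaled by TMM within each library type and tested with edgeR 4.0.16 in R 4.3.3, using the quasi-likelihood test with robust estimation for the 13329 genes with at least 10 counts over RF and 10 over total RNA. For TE, a model of all 12 libraries held library type, treatment and their interaction, which is the TE change. RF and total RNA were each fitted alone. P-values were adjusted by Benjamini-Hochberg across the whole table. CPM was calculated from these scaled sizes, with a prior count of 2 for log2 TE in each culture. Alternatives were DESeq2 1.42.0 (its size factors and Wald test), limma 3.58.1 (voom with sample weights, limma-trend on TE per culture, and on FPKM with pseudocounts of 1 and 0.1), other count minimums, TMM over all libraries, a replicate block and leaving out cultures. Python 3.11.15 with pandas 2.3.3 and scipy 1.17.1 was used for lengths, levels and sequences. Coding lengths, coordinates and mRNA starts are from GENCODE on GRCh37, whose version differs from the authors' annotation, and promoters are from RefSeq. A copied window is an exact 30-base match outside the gene, on either strand.

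The members and lists were chosen with earlier results of these data known. Values in every library are given for up to 4 genes in each direction with the smallest p in each of the TE, RF and total RNA tests, the 6 with the most RF counts, and HSPA1A with HSPA1B. Levels with the coding length of the leading isoform, windows without copies and the removal of 3 total RNA libraries were chosen after seeing the data. 1 mRNA start is not reported here.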

Additional observations from a re-analysis of the deposited data

How the results depend on the processing

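For the chaperone genes, 15 alternatives were tried in TE, 13 in RF and 17 in total RNA. The median change kept its sign in each, between -0.17 and -0.0055 in TE, -0.22 and -0.04 in RF and -0.05 and -0.01 in total RNA. In TE the median over all genes was also below 0 in most fits. It lay below that of the chaperones without rapamycin replicate 3 (-0.06 against -0.0055) and without the shallowest RF culture of each treatment (-0.04 against -0.02). In the other fits it lay above. Leaving out 1 culture at a time, the TE median of the chaperones lay between -0.17 (without rapamycin replicate 1) and -0.0055 (without rapamycin replicate 3). The counts of members called stayed at 0 in all of these except that DESeq2's Wald test called 1 higher and 2 lower in TE: HSPA1A (0.43, adjusted p 0.025), DNAJC7 (-0.75, adjusted p 0.00744) and HSPE1 (-0.44, adjusted p 0.0247). The cause was not tested. Over all genes, without DMSO replicate 3 edgeR called 374 genes lower and 70 higher in TE and 6 lower and 875 higher in total RNA, 0 of them chaperones, against 0 with all cultures. DESeq2 called 590 lower and 669 higher in TE, 5 in RF and 4 lower and 25 higher in total RNA, no filter beyond 1 count gave 10 lower and 10 higher in RF, and without rapamycin replicate 1 edgeR called 5 higher in TE and 6 higher in RF.

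Single genes near 0 turned. Leaving out 1 culture at a time, the TE change ranged from -0.0899 to 0.20 for HSPA8, from -0.30 to 0.11 for HSPD1, from -0.19 to 0.0216 for CCT6A and from -0.22 to 0.0521 for HSPA9, and the RF change of HSF1 from -0.13 to 1.25. In total RNA it ranged from -0.0011 to 0.0458 for DNAJB6, from -0.0195 to 0.0722 for CDC37, from -0.0494 to 0.0623 for PFDN4 and from -0.0336 to 0.0515 for HSF1. With voom and sample weights, TE was -0.0313 for HSPA8 and -0.10 for HSF1 and RF of HSF1 was -0.21. TMM over all libraries put TE of HSPA8 at -0.0253, and limma-trend on TE per culture that of HSF1 at -0.14. In total RNA, no filter beyond 1 count gave -0.0106 for PFDN4 and -0.0126 for HSF1. Without the shallowest RF culture of each treatment, total RNA was -0.0111 for DNAJB6, -0.0390 for CDC37 and -0.0099 for HSF1. On FPKM with a pseudocount of 1, with or without a minimum FPKM, it was -0.0373 for DNAJB6, -0.0076 for CDC37, -0.0120 for PFDN4 and -0.0105 for HSF1, and with a pseudocount of 0.1 it was -0.0377, -0.0077, -0.0122 and -0.0108 for the same genes. The causes were not tested.

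Level ratios depend on the length used. With lengths implied by FPKM, the highest over the lowest TRiC subunit in RF density was 4.13 in DMSO and HSPD1 over HSPE1 was 0.795. With the coding length of the leading isoform, HSP90AB1 over HSP90AA1 was 3.11. With the number of windows without a copy as the length, HSPD1 over HSPE1 was 0.229.

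The labels give both treatments replicates 1, 2 and 3. Cultures with the same number did not deviate together (r across genes of -0.12, -0.06 and -0.07 in RF and -0.11, -0.12 and -0.22 in total RNA). With 3 samples per group, whose deviations sum to 0, this cannot exclude a paired setup. The main fits did not use the numbers as pairs. With the replicate number as a block, 0 chaperone genes were called in TE, RF or total RNA, with medians of -0.11, -0.12 and -0.03, and over all genes 1 was called in TE, 6 in RF and 0 in total RNA. HSF1, BAG1 and DNAJB4, with 0 to 53 RF counts per library, had the widest TE intervals (SE 0.66, 0.84 and 0.59).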
